A study of Mus musculus with 2 samples.

Results

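The mitochondrial ribosome translates the messenger RNAs that the mitochondrial genome encodes, all of which specify subunits of the oxidative phosphorylation (OXPHOS) complexes. Its ribosomal RNAs are transcribed inside the organelle, whereas all of its proteins are encoded in the nucleus, made in the cytosol and imported. Brown adipose tissue is dense with mitochondria, whose respiratory chain feeds the proton gradient that UCP1 dissipates as heat. The genes described here are all protein-coding mouse genes whose symbol is *Mrpl* (large subunit) or *Mrps* (small subunit) followed by a number. There were 78 of them among the 52768 genes listed, 49 of the large and 29 of the small subunit.

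RNA was sequenced from interscapular brown adipose tissue (iBAT) of C57BL/6 mice at 8 weeks of age, in 2 libraries with 1 library per genotype. The flox/flox library came from METTL3flox/flox mice, in which loxP sites flank part of *Mettl3*, the gene of the m6A RNA methyltransferase. The BKO library came from METTL3flox/flox UCP1-iCre+/- mice, so both groups carried the floxed alleles and only BKO carried the recombinase. According to the methods each library pooled RNA from 4 mice, and iCre was expressed from the *Ucp1* locus. *Ucp1* is a gene of brown adipocytes, so the deletion is not directed at the other cells of the tissue.

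The files gave 1 FPKM value (fragments per kilobase of exon scaled to a library total) per gene and library. The totals used for that scaling, worked out from the values, were 17480546 fragments for flox/flox and 20240633 for BKO. The fragments of the libraries themselves, in part estimated, summed to 18933004 and 20224258. As each genotype had 1 library, no difference could be tested, and every ratio below compares 2 libraries, not 2 genotypes. Intervals are exact 95% Clopper-Pearson limits on the ratio of fragments and cover counting error only. *Mettl3* itself was at 1.80 FPKM in flox/flox and 2.38 FPKM in BKO, 1.32-fold higher (1.08 to 1.62), so the value does not show the loss that the label names, and the second library is called the library labelled BKO throughout. The value is over the whole gene, including exons that the deletion leaves in place, and over all cells of the tissue. Cell type markers also differed between the libraries, with none at 0 in either. All 12 skeletal muscle markers were higher in the library labelled BKO (sum 57.5 against 3612 FPKM), as were all 7 macrophage markers (56.8 against 306 FPKM) and all 5 fibroblast markers (114 against 469 FPKM). All 5 endothelial markers were lower (181 against 74.2 FPKM), and of 7 brown adipocyte markers 3 were higher and 4 lower (7526 against 5110 FPKM). Their part in the ratios below was not tested, and in bulk tissue fewer cells of a type cannot be told apart from less RNA per cell.

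The 2 subunits were expressed over a similar range. Of the 78 genes, 77 averaged 1 FPKM or more over the libraries and were compared further. The 48 large subunit genes had a median of 29.6 FPKM in flox/flox (range 5.21 to 255 FPKM) and 26.6 FPKM in the library labelled BKO (4.27 to 253 FPKM). The 29 small subunit genes had a median of 17.6 FPKM in flox/flox (4.49 to 122 FPKM) and 16.4 FPKM in the library labelled BKO (4.14 to 110 FPKM). The levels of the 77 genes kept much the same order between the libraries, with a Spearman correlation across genes of 0.913, given as a description since genes are not replicates.

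*Mrpl34*, a short large subunit protein with a bacterial counterpart, was by far the most abundant mRNA of the family per length, at 255 FPKM in flox/flox and 253 FPKM in the library labelled BKO (2709 and 3105 fragments, ratio 0.990, 0.940 to 1.04). The next large subunit genes in flox/flox were *Mrpl2* (84.4 FPKM), *Mrpl12* (73.3 FPKM), *Mrpl14* (57.7 FPKM), *Mrpl55* (50.6 FPKM) and *Mrpl28* (49.98 FPKM). In the library labelled BKO these were at 62.2, 83.3, 79.9, 49.6 and 41.2 FPKM. At the low end of the large subunit, *Mrpl32*, *Mrpl1*, *Mrpl19* and *Mrpl48* lay between 5.21 and 5.99 FPKM in flox/flox and between 4.73 and 6.22 FPKM in the library labelled BKO. The abundant and the scarce genes of this subunit thus stayed apart in both libraries.

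In the small subunit, *Mrps21* led with 122 FPKM in flox/flox and 110 FPKM in the library labelled BKO. *Mrps36* followed at 102 FPKM in flox/flox but only 60.7 FPKM in the library labelled BKO. *Mrps24* (53.9 and 45.9 FPKM), *Mrps23* (53.5 and 93.8 FPKM), *Mrps28* (51.4 and 50.8 FPKM) and *Mrps15* (41.1 and 26.6 FPKM) came next. The lowest were *Mrps30* (4.49 and 4.14 FPKM), *Mrps25* (5.17 and 7.33 FPKM), *Mrps10* (5.22 and 5.33 FPKM) and *Mrps22* (6.62 and 4.82 FPKM). *Mrps23* was thus the one gene of the upper group with a clearly higher value in the library labelled BKO.

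**Figure D1:**
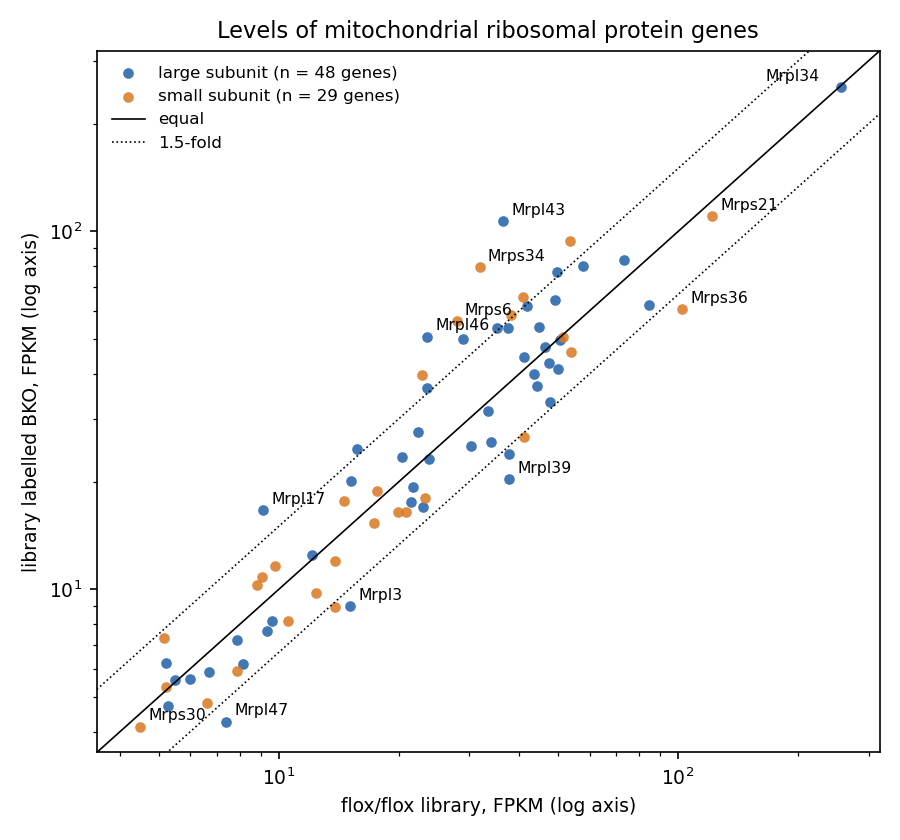
Level of each of the 77 genes in the flox/flox library (x axis, FPKM, log scale) and in the library labelled BKO (y axis, FPKM, log scale), 1 point per gene, blue for the large and orange for the small subunit. The solid line marks equal values and the dotted lines a 1.5-fold difference. *Mrpl34* sits on the line of equality at 255 and 253 FPKM, and *Mrpl43*, *Mrps34* and *Mrpl46* lie farthest above it.

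*Mrpl53* was the only gene of the family listed at 0, in both libraries (chromosome 6, chr6:83109040-83109939, GRCm38). Other genes annotated on the same strand, *Ccdc142os* and *Gm42688*, overlap 88.0% of its exon bases, and reads that match several genes can be left out by the counting, so the 0 is not a measure of absence. In all, 25 of the 78 genes were taken as uncertain. In these, exons of other genes overlapped at least 10% of the exon bases, an annotated pseudogene bears the gene's name (*Mrps36*, *Mrpl23*, *Mrpl48*), or the fragments behind the FPKM could not be worked out (*Mrpl49*, *Mrpl16*, *Mrpl11*, *Mrpl40*, *Mrps6*). Of the last group, *Mrpl49* was at 23.7 and 23.1 FPKM in flox/flox and the library labelled BKO, *Mrpl16* at 49.2 and 64.2 FPKM and *Mrpl11* at 15.1 and 20.1 FPKM, without intervals. The other 72 compared genes rested on 337 to 4392 fragments per library.

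As a whole the family was centred near no difference, with individual genes spread to both sides. The log2 ratio of FPKM + 0.1 (the library labelled BKO over flox/flox) had a median of -0.04 over the 77 genes, against 0.02 over all 12205 genes that averaged 1 FPKM or more and 0.05 over the 10652 protein-coding ones. It was above 0 for 35 genes and below 0 for 42. These directions depend on the scaling: when both libraries were brought to the same sum of FPKM (TPM), every log2 ratio shifted up by 0.33, the family median became 0.29 beside 0.38 for protein-coding genes, and 59 of 77 genes were above 0. The summed level was 2463 FPKM in flox/flox and 2711 FPKM in the library labelled BKO, a ratio of 1.10. Of the 72 genes with known fragments, the counting interval of the ratio lay wholly above 1 for 25, wholly below 1 for 34 and held 1 for 13. The same count was not made over all genes, so these numbers have no share to stand beside and describe counting error only.

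In the deposited scaling, 14 genes had a BKO value 1.5-fold or more above flox/flox, 18.2% of the family against 19.6% of all 12205 genes. Another 7 were at least 1.5-fold lower, 9.09% against 13.6%. At least 2-fold higher were 4 genes (5.19% against 11% of all genes), and none was at least 2-fold lower (5.91% of all genes). Among the compared protein-coding genes, 20.3% were at least 1.5-fold higher and 9.94% lower, and 11.3% at least 2-fold higher and 3.23% lower. The family's shares were thus near those of protein-coding genes at 1.5-fold and below them at 2-fold. With a minimum of 5 FPKM, 14 of 76 genes were at least 1.5-fold higher and 7 lower, beside 16.6% and 11.4% of all genes. The interquartile range of the log2 ratios was 0.67 in the family, 0.76 over all genes and 0.25 over 70 cytosolic ribosomal protein genes, which encode the other ribosome of the cell.

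The medians of the large and the small subunit lay close together. The large subunit median was -0.03 (22 genes above 0, 26 below) and the small subunit median -0.12 (13 above, 16 below), a difference of 0.08. Sorted by symbol, the summed level gave a ratio of 1.10 in both subunits, 1657 to 1822 FPKM for the large and 807 to 889 FPKM for the small. Sorted by position in the ribosome, with *Mrps36* in neither subunit, it was 1676 to 1844 FPKM for the large (ratio 1.10). For the small subunit it was then 685 to 807 FPKM (ratio 1.18). Among large subunit genes 8 were at least 1.5-fold higher and 4 lower, and among small subunit genes 6 were higher and 3 lower. When the genes were placed by their position in the ribosome rather than by symbol, the difference in medians was 0.05, and without the uncertain genes it was 0.01. Both subunit medians turned positive in the TPM scaling, to 0.30 and 0.22.

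**Figure D2:**
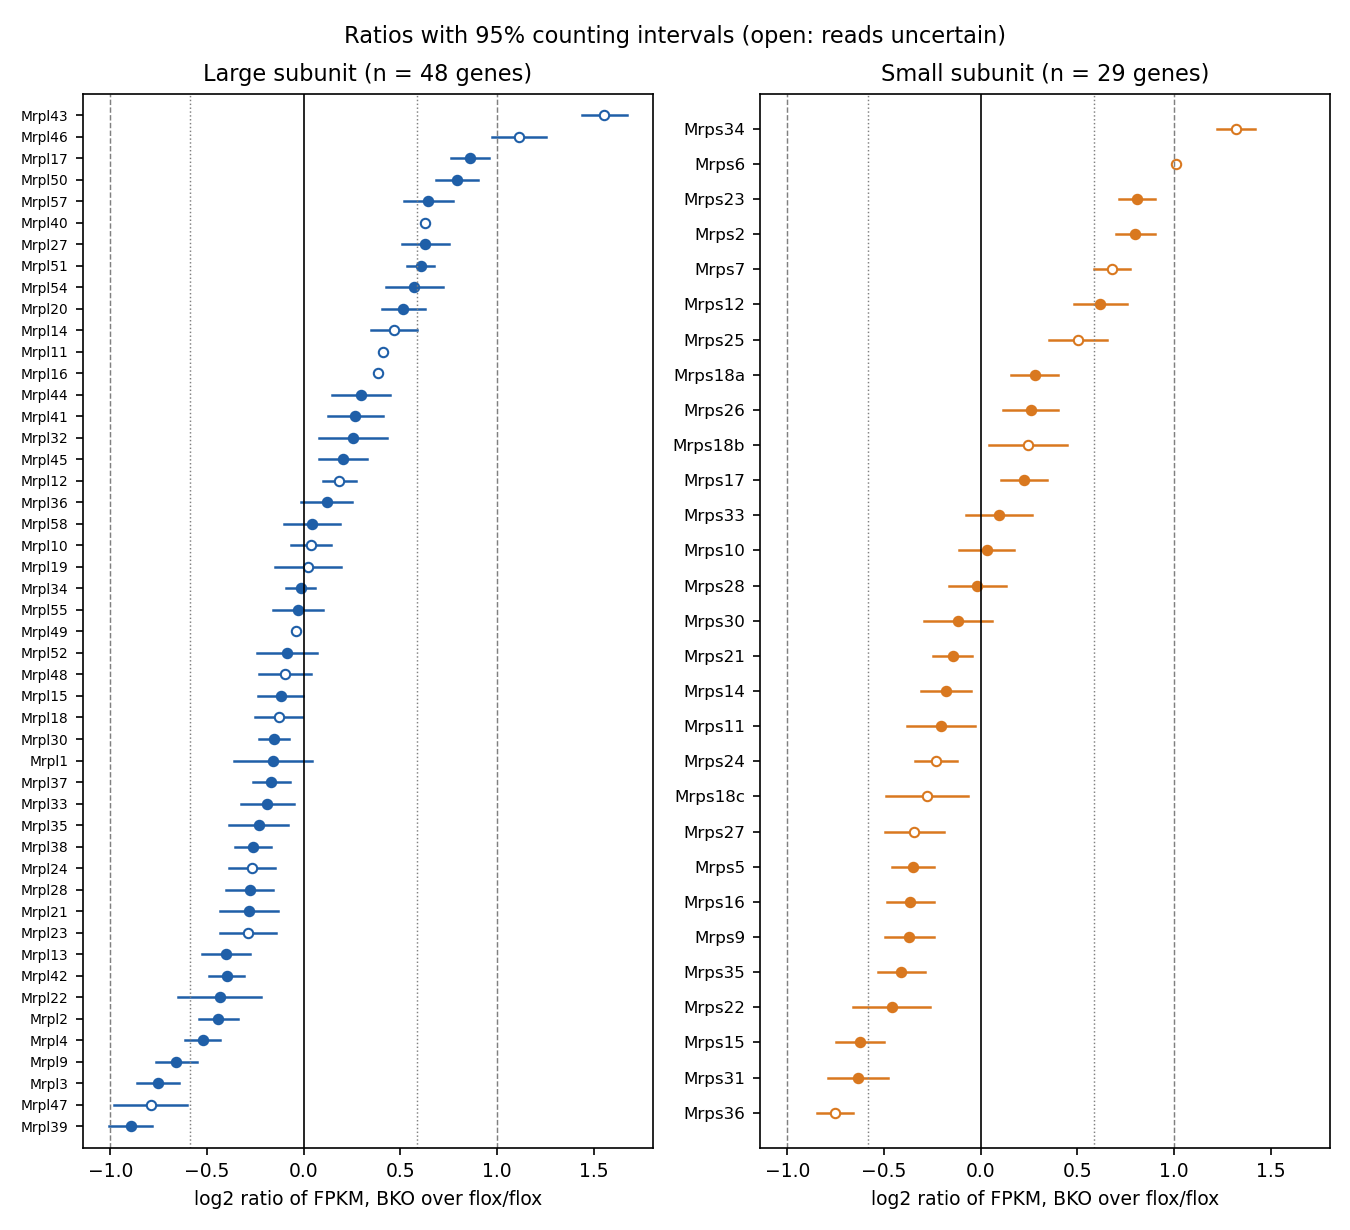
The log2 ratio of FPKM (x axis, the library labelled BKO over flox/flox) of each gene, ranked within the large subunit (left) and the small subunit (right). Bars are 95% counting intervals and open symbols mark uncertain genes. Dotted lines stand at 1.5-fold and dashed lines at 2-fold. The ratios run from -0.89 to 1.55 on the left and from -0.75 to 1.32 on the right and cross 0 near the middle of the list, and the 4 genes past 2-fold are all open symbols.

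The genes with the highest ratios included 4 at least 2-fold higher, and all 4 overlap other genes. *Mrpl43* (large subunit, chr19:45004829-45006442) was at 36.4 FPKM in flox/flox and at 107 FPKM in the other library (772 and 2625 fragments, 2.94-fold higher, 2.71 to 3.19). Exons of *Twnk*, the mitochondrial DNA helicase gene on the opposite strand, cover 33.4% of its exon bases. *Mrps34* (chr17:24895116-24897502), a protein particular to the mitochondrial small subunit and needed for its stability, was at 31.8 and 79.4 FPKM (1148 and 3319 fragments, 2.50-fold higher, 2.33 to 2.67). Its exons are overlapped over 77.8% by *Mapk8ip3* and *Nme3*. *Mrpl46* (large subunit, chr7:78775236-78783531) was at 23.5 and 50.9 FPKM (581 and 1457 fragments, 2.17-fold higher, 1.97 to 2.39), with 12.2% of its exon bases shared with *Mrps11*. *Mrps6*, a counterpart of bacterial S6 (chr16:92058270-92112227), was at 27.9 and 56.2 FPKM (ratio 2.02). Its fragments are not known, and *Slc5a3* and *Gm49711* overlap 19.9% of its exon bases on the same strand.

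Among genes not taken as uncertain, none reached 2-fold and 8 were 1.5-fold or more above flox/flox (15.1%, beside 19.6% of all compared genes). *Mrpl17* (chr7:105803206-105811099), counterpart of bacterial L17 near the exit of the peptide tunnel, was at 9.15 and 16.6 FPKM (1216 and 2556 fragments, 1.82-fold higher, 1.69 to 1.95). *Mrps23* (chr11:88204388-88211507) was at 53.5 and 93.8 FPKM (1.75-fold higher, 1.65 to 1.87). *Mrps2*, counterpart of bacterial S2 (chr2:28468066-28471178), was at 22.8 and 39.7 FPKM (1.74-fold higher, 1.62 to 1.87). *Mrpl50* (chr4:49512596-49521093) was at 28.9 and 50.1 FPKM (1.73-fold higher, 1.61 to 1.87). Their intervals lay wholly above 1.5-fold, which was true of 8 genes of the family in all, a count not made over all genes. *Mrpl57* (15.7 and 24.6 FPKM), *Mrpl27* (49.8 and 77.0 FPKM), *Mrps12* (38.1 and 58.5 FPKM) and *Mrpl51* (35.3 and 53.7 FPKM) were 1.52- to 1.56-fold higher. *Mrps12* is the counterpart of bacterial S12, which lines the decoding centre. *Mrps7* (40.8 and 65.4 FPKM, ratio 1.60) and *Mrpl40* (23.6 and 36.5 FPKM, ratio 1.55) complete the 14 genes and belong to the uncertain ones. *Mrpl54*, at 41.7 and 62.0 FPKM (ratio 1.49), lay just inside the threshold.

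Of the 7 genes at least 1.5-fold lower, *Mrpl39* (chr16:84717576-84735742), a large subunit protein related to threonyl-tRNA synthetases, had the lowest ratio. It had 37.7 FPKM in flox/flox against 20.3 FPKM in the other library (fragments 1670 and 1040, 1.86-fold lower, 1.72 to 2.01). *Mrpl3* (chr9:105053239-105079888), counterpart of bacterial L3 near the peptidyl transferase centre, was at 15.1 and 8.97 FPKM (1759 and 1209 fragments, 1.68-fold lower, 1.56 to 1.81). *Mrpl9* (chr3:94443318-94451130) was at 37.7 and 23.9 FPKM (1.58-fold lower, 1.47 to 1.70). These lower genes were spread over both subunits: *Mrps31* (13.8 and 8.90 FPKM) was 1.55-fold lower (1.39 to 1.73) and *Mrps15*, counterpart of bacterial S15 (41.1 and 26.6 FPKM), 1.54-fold lower (1.41 to 1.68). *Mrps36* was 1.69-fold lower (1.58 to 1.80). *Mrpl47* (7.39 and 4.27 FPKM) was 1.73-fold lower (1.52 to 1.98), with *Actl6a* and *Ndufb5* over 24.2% of its exon bases. Next came *Mrpl4* (47.8 and 33.3 FPKM), *Mrps22* (6.62 and 4.82 FPKM) and *Mrpl2* (84.4 and 62.2 FPKM), which were 1.36- to 1.44-fold lower. In the TPM scaling none of the family was at least 1.5-fold lower, beside 6.93% of all compared genes.

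Several symbols do not say where or how the protein works. *Mrps36*, the abundant gene that was lower, encodes a protein now known as a subunit of the 2-oxoglutarate dehydrogenase complex rather than of the ribosome. *Mrps30* and *Mrps18a* encode proteins that sit in the large subunit. *Mrps30* was at 4.49 and 4.14 FPKM (ratio 0.921, 0.816 to 1.04) and *Mrps18a* at 14.6 and 17.7 FPKM (ratio 1.21, 1.11 to 1.32). The other paralogs of bacterial S18 stay in the small subunit: *Mrps18b* was at 9.80 and 11.6 FPKM (ratio 1.18) and *Mrps18c* at 19.9 and 16.4 FPKM (ratio 0.824), both overlapped by other genes. *Mrpl12*, a stalk protein that also binds the mitochondrial RNA polymerase, was at 73.3 and 83.3 FPKM (ratio 1.14, 1.07 to 1.21). *Mrpl58*, a peptidyl-tRNA hydrolase that rescues stalled ribosomes, was at 12.1 and 12.5 FPKM (ratio 1.03, 0.931 to 1.14). *Mrpl55* was at 50.6 and 49.6 FPKM (ratio 0.980, 0.895 to 1.07). Of the genes in this group, *Mrps36* alone passed 1.5-fold.

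Proteins inherited from the bacterial ribosome and proteins added in mitochondria had medians on opposite sides of 0. The 44 genes of families shared with bacteria had a median log2 ratio of -0.15 (17 above 0, 27 below), with a summed level of 1602 and 1652 FPKM. The 32 compared mitochondria-specific genes had a median of 0.15 (18 above, 14 below), with 811 and 1009 FPKM. *Mrpl55* (-0.03) was counted in neither class. The order was the same among *Mrpl* genes (-0.14 for 28 and 0.20 for 19 genes) and among *Mrps* genes (-0.16 for 16 and 0.10 for 13 genes). The classes overlapped widely, since the mitochondria-specific genes held both *Mrpl43* and *Mrpl39* and had an interquartile range of 0.86 against 0.51. Without the uncertain genes the medians were -0.18 (31 genes) and 0.10 (21 genes), and in the TPM scaling both were above 0, at 0.19 and 0.48. *Mrpl47*, counted with the mitochondria-specific genes by its number, is the counterpart of bacterial L29. Moved to the other class, it left medians of -0.15 and 0.20. The mitochondria-specific class also counted *Mrps18a* and *Mrps18b*, the S18 paralogs, and *Mrps36*, and without these 3 its median was 0.10 (29 genes). These are descriptions of classes of genes in 2 libraries, with no test.

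The remaining genes of mitochondrial translation surround the family in the same libraries. The 5 mitoribosomal proteins with other symbols had a median of 0.01 and none passed 1.5-fold. *Dap3*, a GTP-binding small subunit protein, was at 10.7 and 8.39 FPKM (1.28-fold lower, 1.18 to 1.39). *Chchd1* was at 62.6 and 71.6 FPKM, *Aurkaip1* at 55.4 and 53.7 FPKM, *Gadd45gip1* at 10.4 and 11.6 FPKM and *Ptcd3* at 10.6 and 10.7 FPKM. Of 25 compared mitoribosome assembly genes 4 were at least 1.5-fold higher and 1 lower, with a median of 0.12. *Ddx28*, an RNA helicase of large subunit assembly, was at 5.92 and 19.7 FPKM (3.33-fold higher, 2.88 to 3.86), and *Mrm3*, a methyltransferase of the large ribosomal RNA, at 9.52 and 18.9 FPKM (1.98-fold higher, 1.74 to 2.27). At the other end were *Mettl17* (5.69 and 3.65 FPKM, 1.56-fold lower, 1.34 to 1.82) and *Mterf3* (7.49 and 5.08 FPKM, 1.47-fold lower).

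Mitochondrial translation factors and aminoacyl-tRNA synthetases leaned lower in the deposited scaling, where the median of all compared protein-coding genes was 0.05. In the TPM scaling their medians were 0.03 and 0.07, above 0 but still below the 0.38 of all compared protein-coding genes. Of 14 translation factors 12 were below 0 (median -0.30) and 1 was at least 1.5-fold lower. This was *Taco1*, a translational activator of cytochrome c oxidase subunit 1, at 29.9 and 18.4 FPKM (1.63-fold lower, 1.45 to 1.83). *Mtrf1l*, a release factor, was at 3.39 and 2.27 FPKM (1.49-fold lower, 1.197 to 1.857), while *Mtfmt* (3.29 and 3.91 FPKM) and *Guf1* (4.35 and 4.61 FPKM) were the 2 above 0. Of 17 mitochondrial aminoacyl-tRNA synthetases 15 were below 0 (median -0.26). *Cars2* was at 5.99 and 2.23 FPKM (2.69-fold lower, 2.36 to 3.07) and *Aars2* at 13.5 and 8.50 FPKM (1.59-fold lower), whereas *Pars2* was at 3.16 and 5.92 FPKM (1.87-fold higher, 1.56 to 2.26) and *Ears2* at 1.88 and 3.15 FPKM (1.68-fold higher).

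Most RNAs that the mitochondrial proteins bind, and most mRNAs of the proteins that the ribosome's products join, had lower ratios than the family median. The small ribosomal RNA *mt-Rnr1* was at 1848 FPKM in flox/flox and 995 FPKM in the other library (1.86-fold lower, 1.82 to 1.89), and the large ribosomal RNA *mt-Rnr2* at 1796 and 670 FPKM (2.68-fold lower, 2.64 to 2.73). The study's methods do not state how ribosomal RNA was handled for these libraries, so the ribosomal RNA values describe the libraries only. Of the 13 mitochondrially encoded mRNAs 12 were at least 1.5-fold lower (median -1.23), from *mt-Nd4l* (2676 and 333 FPKM) and *mt-Co2* (5861 and 756 FPKM) to *mt-Nd1* (19099 and 12316 FPKM). The exception was *mt-Nd3*, at 201 and 218 FPKM. Of 82 compared nuclear OXPHOS subunit genes 78 were below 0 and 43 at least 1.5-fold lower (median -0.59), beside 7 of 77 in the mitoribosomal family. The ends of that list were *Cox4i2* (7.62 and 2.38 FPKM) and *Cox6b2* (10.1 and 3.26 FPKM) on the low side and *Atp5g1* (0.512 and 7.30 FPKM) and *Cox6a2*, an isoform of striated muscle (1.43 and 66.3 FPKM), on the high side, beside the higher skeletal muscle markers given above. In the TPM scaling these medians were -0.89 and -0.26. The cytosolic ribosomal protein genes had a median of 0.07, with 1 of 70 at least 1.5-fold higher and 2 lower, so that the mitoribosomal genes scattered more widely than they did. Their lowest ratios were those of *Rpl24* (1.39 and 0.624 FPKM) and *Rpl30* (53.4 and 31.3 FPKM), their highest those of *Rpl7a* (27.7 and 47.0 FPKM) and *Rps12* (30.3 and 40.7 FPKM), all genes of a family with many pseudogenes.

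**Figure D3:**
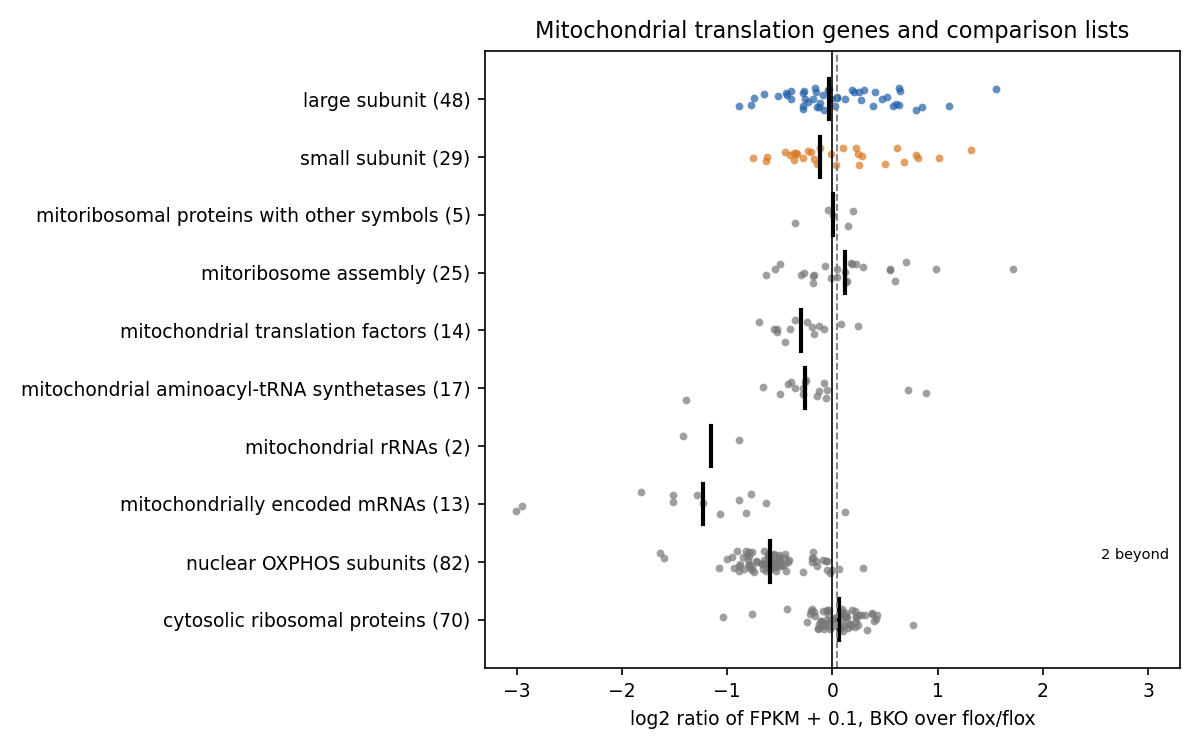
The log2 ratio of FPKM + 0.1 (x axis, the library labelled BKO over flox/flox) of each compared gene, 1 row of points per list with the number of genes in parentheses; black bars are medians and the dashed line is the median of all protein-coding genes (0.05). Vertical scatter within a row only separates points, and 2 OXPHOS genes lie beyond the right edge. The subunit medians (-0.03 and -0.12) lie near the dashed line, and those of the OXPHOS subunits (-0.59) and the mitochondrially encoded mRNAs (-1.23) to its left.

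Many of these genes share a start region with a neighbour that is read in the opposite direction. In 26 pairs a compared member and a compared protein-coding neighbour started within 1000 bases of each other on opposite strands. The log2 ratios had opposite signs in 15 of the 26 pairs (57.7%), against 337 of 725 such pairs (46.5%) among all compared protein-coding genes, and in 13 of the 15 the member was the higher one. In the TPM scaling opposite signs were found in 26.9% of the member pairs and 28.7% of all pairs. Where the starts lay apart and the member was not uncertain, 6 of 10 pairs had opposite signs.

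*Mrpl43* (log2 ratio 1.55) faced *Twnk* (-0.56), which was at 9.05 and 6.12 FPKM. *Mrps34* (1.32) faced *Eme2* (-1.34), a low gene at 1.72 and 0.618 FPKM. *Mrpl50* (0.79) faced *Zfp189* (-0.41) at 2.47 and 1.84 FPKM. All 3 neighbours were scarcer than their members. The counting is not stated to use strand, so reads of overlapping partners cannot be told apart. Of these 3 neighbours, only *Twnk* shares exon bases with its member. One pair joined both subunits: *Mrpl46* (1.11) and *Mrps11* (-0.20), a counterpart of bacterial S11 at 13.8 and 11.99 FPKM (1.15-fold lower, 1.02 to 1.30). Pairs below 0 on both sides included *Mrpl47* (-0.78) with *Ndufb5* (-0.44), an OXPHOS subunit gene, and *Mrpl2* (-0.44) with *Klc4* (-0.57). Reversed pairs, with only the neighbour above 0, were *Mrpl37* (-0.17) with *Cyb5rl* (0.57) and *Mrps27* (-0.34) with *Ptcd2* (0.07).

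**Figure D4:**
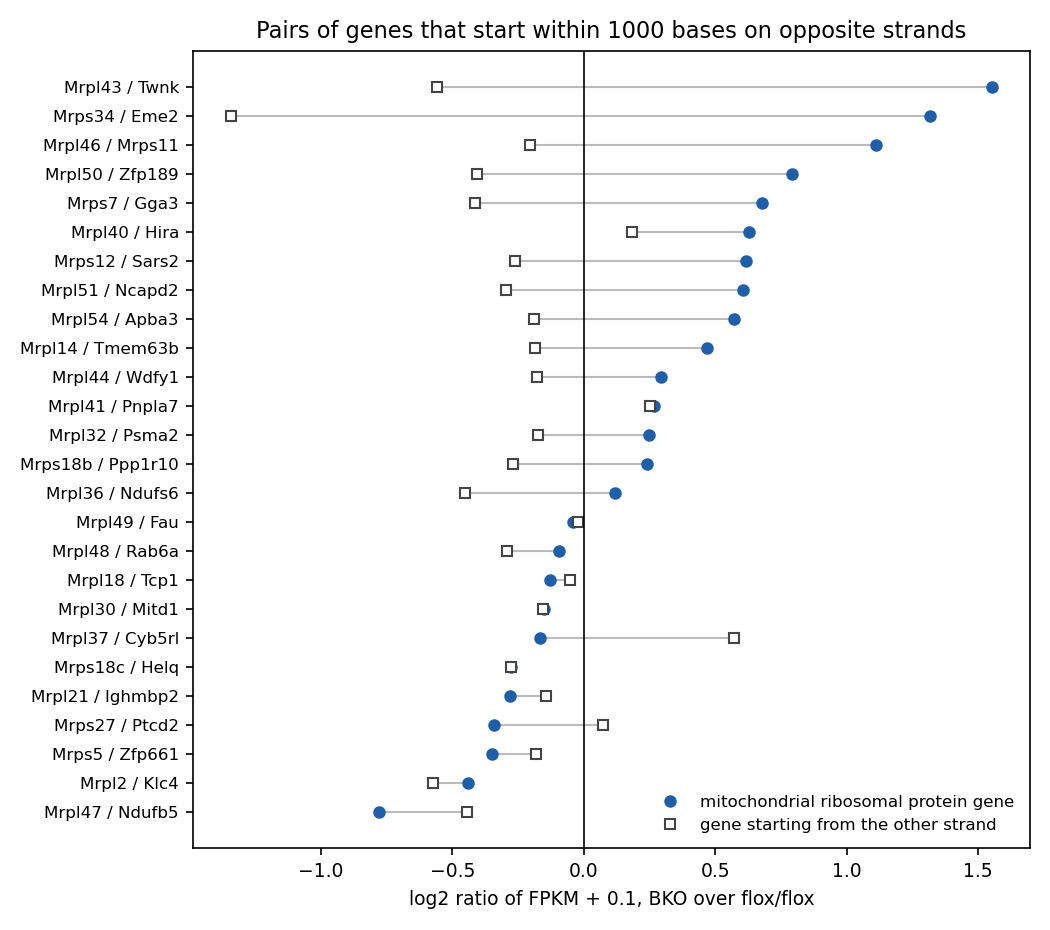
The log2 ratio of FPKM + 0.1 (x axis, the library labelled BKO over flox/flox) of both genes in each of the 26 pairs that start within 1000 bases of each other on opposite strands, with blue circles for the mitochondrial ribosomal protein gene and open squares for its neighbour. Most circles at the top lie right of 0 with their squares left of it, as for *Mrpl43* (1.55) and *Twnk* (-0.56). At the bottom both symbols mostly lie left of 0.

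Promoters of nuclear genes for mitochondrial proteins are known for binding sites of NRF1, of ETS-family factors such as GABPA (NRF2) and of YY1. Windows of 250 bases before to 50 after the RefSeq start (GRCm38.p6) were found for 69 of the 78 genes and searched on both strands for GCGCATGCG (NRF1), CCGGAAG (ETS) and AAGATGGC (YY1), which do not contain each other. The ETS letters stood in 26 of 69 (37.7%), against 1762 of 8404 matched protein-coding genes above the FPKM minimum and 9.93% of all 27025 genes with a window. The YY1 letters stood in 12 (17.4%, against 5.53% and 3.19%) and the NRF1 letters in 7 (10.1%, against 4.37% and 1.95%). A window held at least 1 of the 3 in 38 genes (55.1%), against 28.2% and 14.1%. The nuclear OXPHOS windows held ETS letters in 24.2%, YY1 letters in 13.6%, NRF1 letters in 12.1% and at least 1 of the 3 in 42.4%. In the cytosolic ribosomal protein windows these shares were 43.4%, 9.43%, 3.77% and 56.6%. Of the NRF1 matches 6 were in large subunit genes and 1 in the small subunit.

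Where the letters stood differed between the motifs, with 8 of the 12 YY1 genes holding a match after the start and 14 of the 26 ETS genes holding one within 60 bases before it. Median ratios with and without the letters were close: the median log2 ratio was 0.04 with and -0.04 without NRF1 letters, -0.01 and -0.04 for ETS, and -0.10 and -0.02 for YY1. With ETS letters 7 of 25 genes were at least 1.5-fold higher and 1 lower, and without them 6 of 43 higher and 6 lower. For YY1 these were 2 and 0 of 12, and 11 and 7 of 56. For NRF1 they were 1 and 2 of 7, and 12 and 5 of 61. None of this was tested. The stretches below lie before the RefSeq starts of the most abundant gene and of genes at both ends of the ratios. They are printed 5′ to 3′ on the gene's strand with matches in capitals. *Mrpl39* (chr16:84735350-84735376, minus strand) and *Mrpl17* (chr7:105811088-105811147, minus strand) both hold NRF1 letters, and one was 1.86-fold lower and the other 1.82-fold higher. In both, the letters stand before the RefSeq start but within the gene as GENCODE places it, for *Mrpl39* in its first exon. *Mrpl34* (chr8:71464866-71464925, plus strand) and *Mrpl43* (chr19:45006443-45006557, minus strand) hold ETS letters just before the start, *Mrpl43* at 2 places. *Mrpl46* (chr7:78783090-78783118, minus strand) is shown for the 29 bases between its RefSeq start and the GENCODE start of *Mrps11*, with none of the letters. As GENCODE places it, *Mrpl46* extends over these bases and overlaps *Mrps11*.
Mrpl39: gagaggcGCGCATGCGCccccgcgtgg
Mrpl17: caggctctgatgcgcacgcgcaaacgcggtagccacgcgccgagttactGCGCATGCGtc
Mrpl34: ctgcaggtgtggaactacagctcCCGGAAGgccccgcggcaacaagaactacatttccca
Mrpl43: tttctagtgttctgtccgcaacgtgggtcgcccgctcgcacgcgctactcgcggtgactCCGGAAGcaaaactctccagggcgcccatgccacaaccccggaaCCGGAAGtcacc
Mrpl46: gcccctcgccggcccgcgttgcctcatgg

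Features of the transcripts followed the ratios only weakly. Across the 77 genes the Spearman correlation with the log2 ratio was -0.20 for exon length (median 2533 bases, -0.16 over all compared protein-coding genes), 0.16 for GC content (0.11) and 0.19 for GGACT letters per kilobase, a sequence that METTL3 often methylates (0.08). In the small subunit it was 0.38 for GGACT and 0.36 for GC content, in the large subunit 0.04 and 0.03. The flox/flox level gave 0.09, against -0.29 over all compared protein-coding genes. These correlations are across genes that share the same 2 libraries and are given as descriptions. The family was scattered over 17 chromosomes, with 11 genes on chromosome 11 and 8 on chromosome 17.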

How the data were processed

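The mitochondrial ribosomal protein genes, the comparison lists and the alternatives were chosen with earlier results of these data known, and the neighbouring pairs, transcript features and the alternative classes of *Mrpl47*, *Mrps18a*, *Mrps18b* and *Mrps36* were added after the values were seen.

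The authors deposited 1 FPKM value per gene and library. Per the study's methods and the submitters' notes, they aligned paired-end reads to GRCm38 with TopHat2 and counted with HTSeq 0.6.1. The use of strand is not given in the sources used here. Counting that leaves out reads matching several genes lowers genes with overlapping neighbours or pseudogenes. No column of another sample was used (0 found).

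Genes were named and placed from GENCODE M21 (279 of 52768 identifiers unmatched). In each library 1 constant turned FPKM times exon length into whole numbers, which gave the fragments for 11298 (92.6%) of the 12205 genes that averaged 1 FPKM or more. A value counted as whole within 0.001 fragments plus a relative 1e-08, and for 1001 genes a single other length within 50% was used, *Mrpl28* and *Mrpl43* among them. The recovered fragments summed to 17325128 for flox/flox and 18444563 for the library labelled BKO. With the other genes estimated from FPKM and annotated exon length, the totals were 18933004 and 20224258, so the deposited FPKM of flox/flox were scaled to a smaller total than its own. The recovery was tested on simulated data in which the lengths were known, so the search for another length was not part of that test. No count model was run, and with 1 library per group there was no test.

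The measure was log2((BKO FPKM + 0.1)/(flox/flox FPKM + 0.1)), which understates the change of low genes, with calls at 1.5- and 2-fold. All members are accounted for. Named with values were those at the ends of the levels (6 highest and 4 lowest per subunit) and of the ratios (10 highest and 10 lowest), those past 1.5-fold, those with misleading symbols and those without fragments, and the 2 highest and 2 lowest of each pathway list. Alternatives were the pseudocount, the filter, 5 scalings, subunits by position and leaving out uncertain genes. Python 3.11.15, pandas 2.3.3 and scipy 1.17.1 were used.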

Additional observations from a re-analysis of the deposited data

How the results depend on the processing

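Only the scaling and the uncertain genes moved results. In the TPM scaling the medians were 0.29 for all mitochondrial ribosomal protein genes, 0.30 for the large and 0.22 for the small subunit, 0.19 for bacterial families and 0.48 for mitochondria-specific genes. In that scaling 25 of 77 genes were higher by 1.5-fold or more, beside 33.8% of all compared genes, and 9 by 2-fold or more. None was lower by 1.5-fold or more, beside 6.93% of all compared genes, and 24 of 77 genes changed sign. Scaled to each library's own fragments, 4 were at least 1.5-fold lower, beside 10.6% of all compared genes, and 6 changed sign. Without uncertain genes, 8 were at least 1.5-fold higher (15.1%, beside 19.6% of all compared genes) and 0 at least 2-fold higher. The large minus small difference ran from 0.01 to 0.08 over all alternatives. Other pseudocounts, filters, median centring, a trimmed mean, a common sum without mitochondrially encoded genes and subunits by position moved each count of calls by at most 1 gene. Counting error gave a median half-width of 0.12 on the log2 scale. No paired analysis was possible because each genotype has 1 library.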
